A study of Mus musculus with 2 samples.

Results

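Type 1 conventional dendritic cells (cDC1) from islets of NOD mice, which become diabetic by autoimmunity, were picked from single-cell RNA sequencing data by their transcripts. A barcode with at least 500 genes and at most 10% mitochondrial UMIs (unique molecular identifiers, each counting 1 captured transcript) was taken when Xcr1 and Clec9a together gave at least 2 UMIs. It also had to hold no Cd3d, Cd3e or Cd3g UMI, at most 1 Cd79a UMI, at most 2 C1qa, C1qb and C1qc UMIs and at most 1 Fscn1 or Ccl22 UMI, which limits T cells, B cells, macrophages and migratory dendritic cells. The rule chose 112 of the 22466 kept barcodes, from 24413 deposited.

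The samples were female mice aged 12 weeks of the genotype NOD, called WT NOD, and of the genotype NOD.Cxcl16-/-, labelled as lacking the chemokine gene Cxcl16 on the same background. Islets were picked by hand after collagenase digestion of the pancreas and dispersed without enzymes, and live CD45+ CD31- cells, which are leukocytes and not endothelium, were sorted for 10x Genomics 3' libraries. Each genotype has 1 library, the number of animals in it is not given in the sources used here, and which part of Cxcl16 was deleted is not given either. Differences between the libraries therefore have no replicate check, carry no p-value, and their 95% intervals cover counting error only.

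cDC1 are the dendritic cells best known for taking up dead cells and presenting the antigen on MHC class I to CD8 T cells, which is called cross-presentation. They depend on the transcription factors IRF8 and BATF3, sense dead cells with the receptor CLEC9A, and follow the chemokine XCL1, made by CD8 T and NK cells, through the receptor XCR1. In NOD mice, cDC1 are known to be needed for autoimmune diabetes to start.

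The WT NOD library gave 41 of these barcodes and the library labelled NOD.Cxcl16-/- gave 71. They were 0.335% of the 12252 kept barcodes of the first (exact Clopper-Pearson interval 0.240 to 0.454%) and 0.695% of the 10214 of the second (0.543 to 0.876%). The intervals of the 2 shares did not overlap. In the core of these barcodes, defined below by further marker genes, the shares were 0.245% (0.165 to 0.349%) and 0.460% (0.338 to 0.611%), and those intervals overlap. Other small myeloid classes also had larger shares in the second library. Macrophages, taken as barcodes with at least 10 C1q UMIs, were 0.318% and 1.18% of kept barcodes, and migratory dendritic cells, with at least 4 Fscn1 and Ccl22 UMIs, were 0.482% and 0.911%. Dendritic cells with at least 2 Cd209a and Clec10a UMIs were 0.220% and 0.470%.

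The cDC1 barcodes were deep, with medians of 18683 and 16863 UMIs in WT NOD and in the library labelled NOD.Cxcl16-/-, against 4269 and 5189 over all kept barcodes. Their totals ranged from 1611 to 41153 and from 1599 to 44132 UMIs, and summed to 748831 and 1221278. Their median was 10495 and 12203 UMIs at exactly 2 Xcr1 and Clec9a UMIs and 21559 and 20739 at 4 or more. The rule asks for a count of UMIs, and its part in this depth was not tested. Medians were 9663 and 11465 in Cd209a/Clec10a dendritic cells, 11699 and 11856 in migratory dendritic cells and 12118 and 10775 in macrophages. The libraries shared 45 cell barcodes, and 1 of them was a cDC1 barcode. Cxcl16, the gene named in the genotype, was read in cDC1 of both libraries, at 304 and 274 CPM (the UMIs of a gene summed over the barcodes, as counts scaled to 1 common total) and in 33 of 41 and 59 of 71 barcodes. For that reason the second library is named by its label throughout.

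The limits set how many barcodes were chosen. Of the kept barcodes, 190 and 296 had at least 2 Xcr1 and Clec9a UMIs, and 123 and 181 of them were left out for holding a Cd3 UMI. Those with Cd3 UMIs had medians of 33591 and 34484 UMIs, above those of the cDC1 barcodes, and 103 and 152 of them held at least 6 Cd3 UMIs. Doublets of a cDC1 and a T cell, and T-cell RNA in cDC1 droplets, were not told apart here, and no doublet caller was run on these few barcodes. Of the barcodes without a Cd3 UMI, 11 and 14 were left out by the limit on Fscn1 and Ccl22 alone, so barcodes with both cDC1 and migratory transcripts are not described here.

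Near the threshold the barcodes were less alike. The summed level of Irf8, Wdfy4 and Naaa, 3 cDC1 markers that the rule did not use, had a median of 25.8 and 21.8 UMIs per 10000 in barcodes with at least 4 Xcr1 and Clec9a UMIs. It was 5.78 and 9.29 in the 9 and 22 barcodes with exactly 2, just inside, and 5.11 and 4.38 in the 26 and 32 barcodes with 1, just outside. Both genes were read in 27 and 47 barcodes, Xcr1 alone in 5 and 11, and Clec9a alone in 9 and 13.

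The label held for most of the barcodes and not for all. After the values had been seen, barcodes were split by 3 measures, and a core was defined as those with at least 10 UMIs of the 3 markers per 10000, under 3 Siglech UMIs and under 1% immunoglobulin UMIs. The core held 30 of 41 and 47 of 71 barcodes, and Xcr1 was read in 29 and 45 of them. Since the core was cut on Irf8, Wdfy4 and Naaa, its level of these genes is no result.

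A first group outside the core had Siglech, a receptor of plasmacytoid dendritic cells, at 8 to 19 UMIs in 5 and 6 barcodes. None of these 11 barcodes had an Xcr1 UMI, so Clec9a alone had brought them in. They held 1166 and 1327 CPM of Siglech, 1431 and 1365 CPM of Tcf4, the transcription factor of plasmacytoid dendritic cells, and 1555 and 1596 CPM of the chemokine receptor Ccr9. Naaa was at 17.7 and 19.2 CPM in them and Batf3 had no UMI in either library. These values go against the label cDC1.

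A second group, of 6 and 14 barcodes, had a low level of the 3 markers, with a median of 5.15 and 3.80 UMIs per 10000. Irf8 had no UMI in 3 and 9 of them, and Il1b, the inflammatory cytokine of myeloid cells, stood at 2839 and 1826 CPM against 462 and 497 CPM in the core. A last group of 4 barcodes, all in the library labelled NOD.Cxcl16-/-, held 5.91 to 10.5% immunoglobulin UMIs at totals of only 2225 to 3730 UMIs. The results below are given for all 112 barcodes, with the core beside them where it differs.

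**Figure D1:**
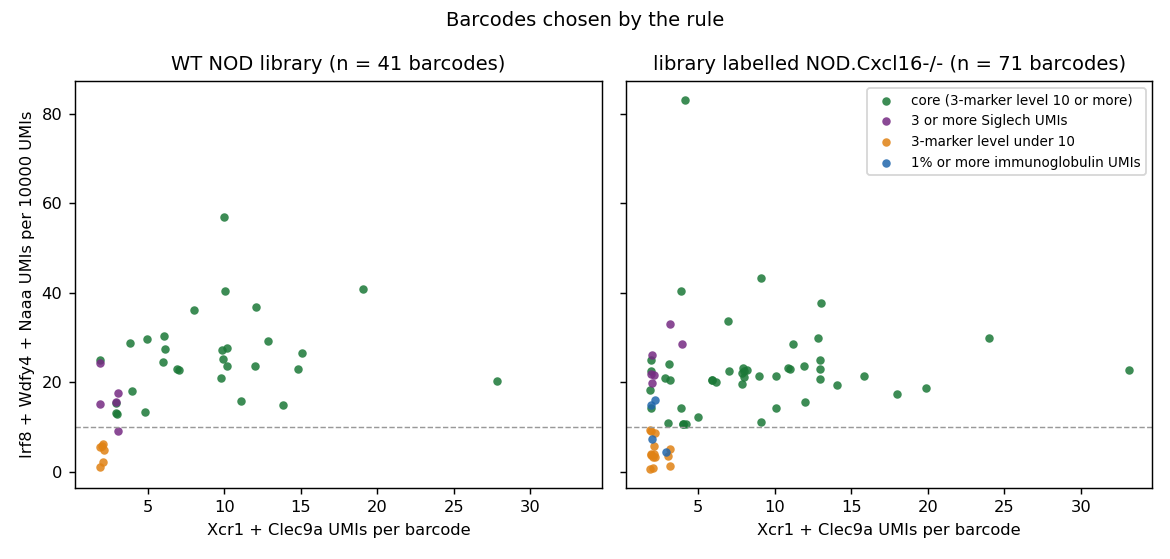
Each point is a barcode chosen by the rule, in WT NOD (left, n = 41) and the library labelled NOD.Cxcl16-/- (right, n = 71). The x axis gives Xcr1 and Clec9a UMIs, moved sideways a little so that points do not cover each other, the y axis the UMIs of Irf8, Wdfy4 and Naaa per 10000, the colours the 4 groups, and the dashed line the level of 10. Barcodes with 4 or more Xcr1 and Clec9a UMIs lie all but 1 in the core, while those with 2 or 3 hold all 4 groups.

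Other cell types were looked for with marker lists. Cd3d, Cd3e and Cd3g were at 0 by the rule, and the 11 T-cell markers summed to 41.4 and 32.8 CPM in cDC1 against 7193 and 7419 CPM in CD8 T cells. The 8 B-cell markers summed to 107 and 27.8 CPM against 7406 and 6734 CPM in B cells, and the core held 4.76 and 11.3 CPM of them. The 11 macrophage and monocyte markers summed to 498 and 369 CPM against 28670 and 26521 CPM in macrophages, and Mertk had no UMI.

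The 6 NK-cell markers summed to 76.1 CPM in the WT NOD library and 9.83 CPM in the other, most of it from the granzyme gene Gzma with 37 and 3 UMIs, of which 1 barcode held 32. Insulin RNA was present, as Ins2 at 316 and 214 CPM and Ins1 at 115 and 118 CPM. The 8 markers of plasmacytoid dendritic cells summed to 610 and 504 CPM in all cDC1 barcodes and to 60.3 and 48.5 CPM in the core. The part of these RNAs in the results below was not tested, except where the core value is given.

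The genes that name the population were read as follows. Xcr1, the XCL1 receptor, stood at 258 CPM in the WT NOD library (exact Poisson interval 223 to 297) and at 270 CPM in the library labelled NOD.Cxcl16-/- (242 to 301). Clec9a, the dead-cell receptor, stood at 147 CPM (121 to 177) and 121 CPM (102 to 142). Both chose the barcodes, so these levels describe the rule. For Xcr1 in other classes, no UMI was found in Cd209a/Clec10a or plasmacytoid dendritic cells, and B cells held 2.92 and 4.32 CPM. Its levels in migratory dendritic cells and macrophages are not given here. The 11 and 14 barcodes left out by the limit on Fscn1 and Ccl22 alone had a median of 2 and 4 Xcr1 UMIs.

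Irf8, the lineage factor, stood at 1179 and 1012 CPM, Wdfy4, which is needed for cross-presentation of cell-associated antigen, at 479 and 429 CPM, and Naaa, a lysosomal lipid hydrolase, at 602 and 419 CPM. These genes varied widely between barcodes. Irf8 ran from 0 over a median of 20 to 55 UMIs a barcode in the WT NOD library and from 0 over 16 to 52 in the other. Naaa ran from 0 over 9 to 52 and from 0 over 6 to 30, and had no UMI in 7 of 41 and 16 of 71 barcodes.

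The gene bodies lie apart in the mouse build GRCm38 (GENCODE M21), all as protein-coding genes. Xcr1 is at chr9:123852315-123862029 on the minus strand and Clec9a at chr6:129408862-129424763 on the plus strand. Irf8 is at chr8:120736358-120756694 on the plus strand, Wdfy4 at chr14:32959547-33185508 on the minus strand and Naaa at chr5:92257659-92278170 on the minus strand.

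The upstream sequences of Irf8 and Ifi205 are shown because, of the promoters of 12 genes searched, these 2 held a pair of matches to a site linked to interferon, and so were chosen by their matches. They were read from RefSeq promoters of GRCm38.p6, as the 250 bases before the start, 5′ to 3′ on the strand of the gene. Capitals mark matches to the interferon-gamma-activated site known as GAS (TTCNNNGAA, either strand) or to the interferon element known as ISRE (GAAA, any pair of bases, GAAA, either strand), where N is any base.
Irf8 at chr8:120736108-120736357, plus strand: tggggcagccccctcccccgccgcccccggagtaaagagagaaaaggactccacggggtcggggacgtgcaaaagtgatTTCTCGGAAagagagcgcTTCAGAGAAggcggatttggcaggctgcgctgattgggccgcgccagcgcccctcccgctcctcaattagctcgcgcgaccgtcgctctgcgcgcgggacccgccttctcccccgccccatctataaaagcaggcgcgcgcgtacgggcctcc
Ifi205 at chr1:174031756-174032005, minus strand: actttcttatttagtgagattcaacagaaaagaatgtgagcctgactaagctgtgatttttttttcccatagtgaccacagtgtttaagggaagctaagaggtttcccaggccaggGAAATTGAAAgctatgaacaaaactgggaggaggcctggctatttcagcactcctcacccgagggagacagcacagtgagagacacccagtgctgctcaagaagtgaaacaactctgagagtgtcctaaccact
Irf8 held a pair of GAS matches, 171 and 153 bases before the start. Ifi205 held an ISRE match 134 bases before the start and another 23 bases after it, which is not printed. The table also lists a second Irf8 start, whose window held no match. Over all 32851 promoters of 300 bases, 8.3% held a GAS match and 3.44% an ISRE match. The site of AP-1 (TGANTCA, in 7.81% of promoters) and the composite site of PU.1 and IRF (GGAA, any pair of bases, GAAA, in 2.72%) were also searched on both strands, and neither was in the windows of Irf8 or Ifi205. Batf3 held 1 GAS match, Cxcl10 held 1 ISRE and 1 AP-1 match, and Cxcl9 held 1 AP-1 match. The windows of Xcr1, Clec9a, Wdfy4, Naaa, Tlr3, Txndc16 and Il12b held none of the 4. A match says only that the letters are there.

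To see which genes set cDC1 apart from the cells nearest to them, UMIs were summed by class and library, and cDC1 were compared with Cd209a/Clec10a dendritic cells (27 and 48 barcodes), migratory dendritic cells (59 and 93), plasmacytoid dendritic cells with at least 3 Siglech UMIs (12 and 14) and macrophages (39 and 121). The 5 and 6 cDC1 barcodes with 8 to 19 Siglech UMIs stayed in the cDC1 sums, and only the core leaves them out. Clec9a, read in all of them, was fitted 3.93 lower on the log2 scale in the plasmacytoid class. That class therefore does not hold these barcodes as a group. The model was fitted with edgeR on 10 sums, with the library as a block. The 2 libraries are the only replicates and differ in their labelled genotype. The block takes out the difference between the libraries that all classes share. The adjusted p-values therefore weigh class differences against how much these vary between the 2 libraries. All genes of the class rules were left out of the calls. Irf8, Wdfy4 and Naaa, which only the core was cut on, were kept.

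Of 7905 genes tested, 46 were higher in cDC1 than in each of the 4 other classes at an adjusted p under 0.05 (0.582% of genes), and 7 were lower (0.0886%). All 46 and all 7 were also called in the core, where 87 and 52 genes passed. The core is a part of the same barcodes, so this is no separate check. Its higher calls hold 2 of the 3 markers it was cut on, Wdfy4 and Naaa, which is no result. DESeq2 in place of edgeR called 10 and 3. Genes tested had first passed a filter on low counts, and some of the 46 did so only through the cDC1 sums. Their being higher was largely fixed by that filter. In both libraries taken alone, 22 of the 46 were at least 2-fold higher than in all 4 classes. Against single classes the separation was larger, with 199 genes higher and 276 lower than in Cd209a/Clec10a dendritic cells, 605 and 832 against migratory dendritic cells, 661 and 415 against plasmacytoid dendritic cells and 642 and 878 against macrophages.

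Among 18 further cDC1 genes known from other tissues, 15 were tested and 7 were higher than in all 4 classes, against the 0.582% of all genes. They were Tlr3, Cd24a, Snx22, Rab7b, Gcsam, Ppt1 and Cd36. The list was chosen with earlier results of these data known, and Tlr3, Cd36 and Snx22 passed the filter on low counts only through cDC1. The 7 therefore describe the barcodes and do not test their label. The core called 9 of the 15. None of the 15 was lower than in any of the 4 classes.

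Tlr3, the endosomal receptor of double-stranded RNA, stood at 60.1 and 52.4 CPM in cDC1 and at no more than 13.6 CPM in any other of the 4 classes. Its smallest fitted difference was 2.95 on the log2 scale, given as a description since Tlr3 passed the filter only through cDC1. Ppt1, a lysosomal thioesterase, stood at 809 and 761 CPM, against 177 and 278 CPM in macrophages, the next highest class, and 40.0 to 68.2 CPM in the dendritic classes. Cd24a, a glycosylated surface protein used to gate cDC1, was at 271 and 241 CPM in cDC1, while B cells, which were not in the test, held 203 and 214 CPM.

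Cd36, a scavenger receptor for lipids and dead cells, was at 78.8 and 50.8 CPM against 0 to 13.6 CPM in the other 4 classes. It too passed the filter only through cDC1, so these levels are a description. Rab7b, a small GTPase of the late endosome, was at 124 and 121 CPM and differed least from macrophages, at 38.5 and 77.1 CPM (log2 difference 0.93, adjusted p = 0.039). Gcsam stood at 72.1 and 81.1 CPM and had no UMI in plasmacytoid dendritic cells or macrophages.

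Several well-known cDC1 genes were not particular to these cells among the 4 classes. Irf8 was higher than in Cd209a/Clec10a dendritic cells (log2 difference 3.28, adjusted p = 0.014) and macrophages, but plasmacytoid dendritic cells held 2197 and 2249 CPM of it. Batf3, the partner factor, was at 176 and 174 CPM, next to 210 and 161 CPM in migratory dendritic cells (log2 difference -0.11, adjusted p = 0.81). Cadm1, an adhesion molecule, was at 243 and 217 CPM, next to 464 and 642 CPM in plasmacytoid dendritic cells. Itgae, which encodes CD103, was at 48.1 and 48.3 CPM in cDC1 and at 59.5 and 59.0 CPM in Cd209a/Clec10a dendritic cells.

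Of the 3 tested label markers, Naaa was higher than in all 4 classes, with a smallest log2 difference of 2.31 and adjusted p values up to 7.5e-06. Wdfy4 was higher than in migratory and plasmacytoid dendritic cells and macrophages, but its difference from Cd209a/Clec10a dendritic cells, at 274 and 219 CPM, did not pass (0.95, adjusted p = 0.077). Ifi205, a nucleic-acid sensor of the PYHIN family, was at 382 and 259 CPM and was higher than in 3 of the classes, but not than in Cd209a/Clec10a dendritic cells, at 214 and 197 CPM (log2 difference 0.62, adjusted p = 0.20).

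Genes outside the list had the largest differences. The first 2, Slc44a4 and Gpr141b, were at or near 0 in the other classes and passed the filter on low counts through cDC1, so their difference was fixed by it and they are given as a description. Slc44a4, of a family of choline transporter-like proteins, was read at 40.1 and 27.8 CPM in cDC1 and had no UMI in migratory or plasmacytoid dendritic cells or macrophages. Gpr141b, an orphan receptor gene, was at 56.1 and 45.0 CPM and at 3.40 CPM in migratory dendritic cells of 1 library, with no UMI in the other classes. Txndc16, a thioredoxin-domain protein, was read in all classes, at 226 and 151 CPM against at most 29.2 CPM elsewhere.

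Other genes above all 4 classes followed. Agpat3, an enzyme of phospholipid synthesis, was at 68.1 and 52.4 CPM, and Rtl8b at 60.1 and 41.8 CPM. Arsb, the lysosomal arylsulfatase B, was at 130 and 99.9 CPM, St3gal5, a ganglioside sialyltransferase, at 73.4 and 61.4 CPM, and Asap2 at 32.0 and 51.6 CPM. Cd207, the lectin langerin of Langerhans cells and some cDC1, was at 29.4 and 74.5 CPM. Agpat3, Rtl8b, St3gal5, Asap2 and Cd207 passed the filter on low counts only with the cDC1 sums, so they are given as a description. With Ppt1 and Naaa, Arsb is another lysosomal hydrolase among the 20 leading genes, noticed after the values were seen and not tested.

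The 7 genes lower than in all 4 classes were Gbp8, Zfp608, Slc15a3, Mgat4a, Prkcb, Ctsh and Filip1l. Ctsh, a lysosomal cysteine protease, was at 417 and 372 CPM against 686 to 1655 CPM in the other classes. Slc15a3, a peptide transporter of the endosome, was at 9.35 and 27.0 CPM against 28.6 to 159 CPM. Prkcb, a kinase of the protein kinase C family, was at 84.1 and 84.3 CPM against 136 to 282 CPM.

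**Figure D2:**
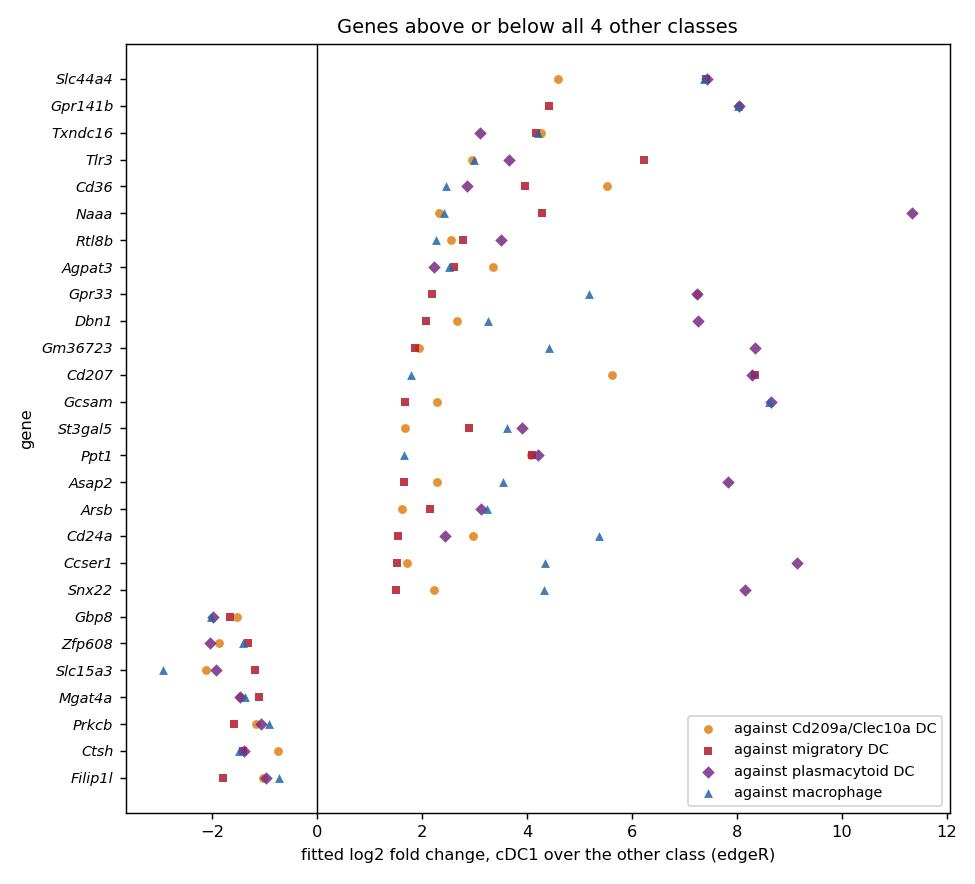
Each row is a gene above or below all 4 other classes (20 highest and all 7 lowest by their smallest fitted difference) and each symbol the fitted log2 fold change of cDC1 over 1 class, over 2 libraries. Values beyond about 7 are set by classes with no UMI and depend on the prior count. All symbols of the upper 20 genes lie above 0 and all of the lower 7 below it.

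**Figure D3:**
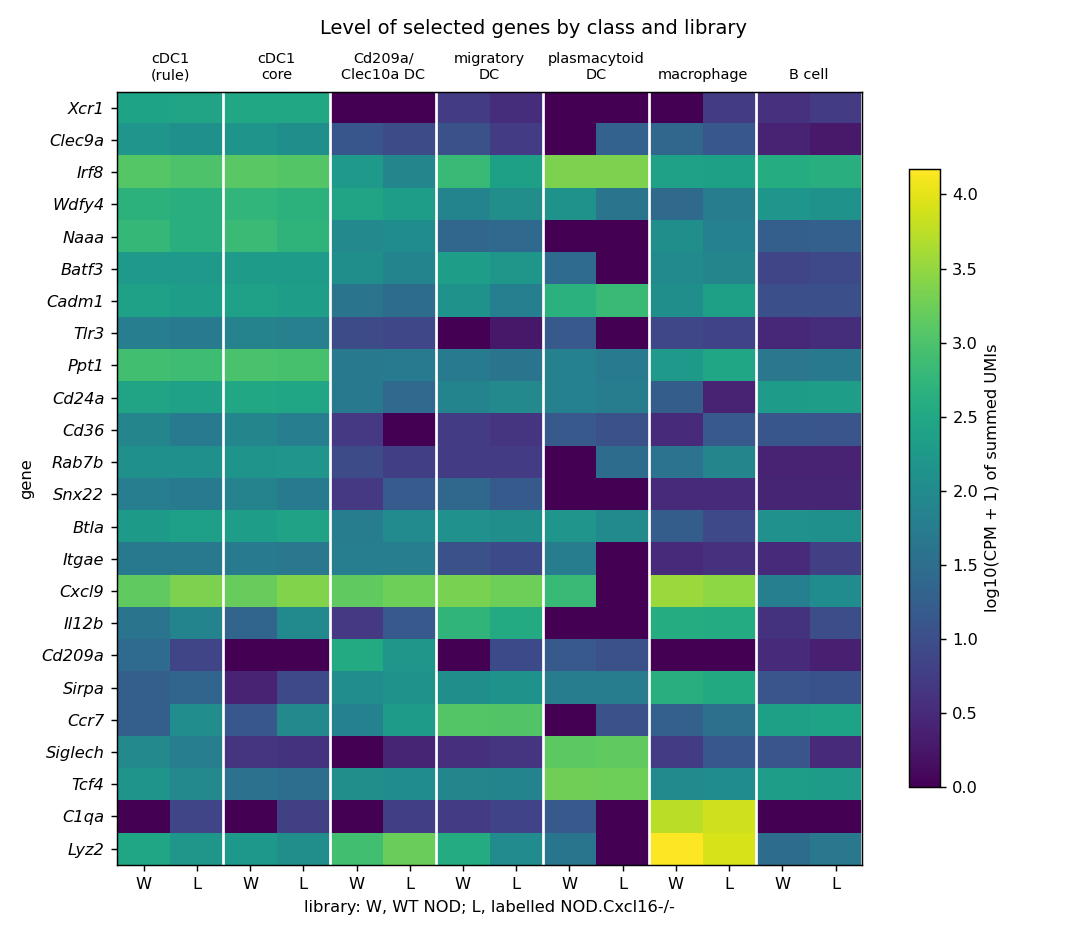
Colour gives log10(CPM + 1) of summed UMIs for 24 genes, by class, with WT NOD (W) and the library labelled NOD.Cxcl16-/- (L) side by side. Tlr3, Ppt1, Cd24a, Cd36, Rab7b and Snx22 are highest in the cDC1 columns among the dendritic and macrophage classes, while Irf8 and Cadm1 are higher in plasmacytoid dendritic cells. Siglech and Tcf4 fade from all cDC1 barcodes to the core.

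The genes of antigen presentation were mostly shared with the other classes. Of 16 MHC class I processing genes, none was higher or lower than in all 4 classes. Against Cd209a/Clec10a dendritic cells 4 were higher and none lower, against migratory dendritic cells 2 were higher and 5 lower, against plasmacytoid dendritic cells 6 were higher and none lower, and against macrophages 3 were higher and 4 lower. Psmb8, an immunoproteasome subunit, was at 1820 and 1750 CPM, higher than in 3 of the classes, with a log2 difference of 0.66 against Cd209a/Clec10a dendritic cells (adjusted p = 0.0084) and of 0.25 against migratory dendritic cells (adjusted p = 0.26). B2m, the class I light chain, was at 1745 and 1936 CPM and was lower than in migratory dendritic cells (log2 difference -1.17, adjusted p = 2.1e-06). It was also lower than in macrophages (-0.70, adjusted p = 0.00044) and higher than in plasmacytoid dendritic cells (0.47, adjusted p = 0.025).

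All 14 MHC class II genes were tested and none was above or below all 4 classes in all barcodes. In the core 1, the cathepsin Ctsl, was below all 4, with a largest adjusted p of 0.0086. In all barcodes Ctsl was instead higher than in Cd209a/Clec10a dendritic cells (log2 difference 1.66, adjusted p = 0.0059). It was also higher there than in migratory dendritic cells (1.62, adjusted p = 0.00068), so its side depends on the barcodes taken. Cd74, the invariant chain, was at 14569 and 15951 CPM and H2-Aa at 8633 and 8858 CPM. Ctss, the protease that trims the invariant chain, was at 536 and 691 CPM. It was below Cd209a/Clec10a dendritic cells at 1154 and 1346 CPM (log2 difference -0.98, adjusted p = 0.00054). It was also below migratory dendritic cells (-0.84, adjusted p = 0.00074) and macrophages.

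Of 22 genes of cross-presentation and dead-cell uptake, 20 were tested and 1, Cd36, was higher than in all 4 classes. Its call was largely fixed by the filter on low counts, which it passed only through cDC1. In the core Cybb, the catalytic subunit of the phagosomal oxidase, was lower than in all 4, with a largest adjusted p of 0.0084. Ncf4, a subunit of the phagosomal oxidase, was at 389 and 432 CPM, higher than in the 3 dendritic classes and not past the threshold against macrophages (log2 difference 0.32, adjusted p = 0.30). Lgmn, the endosomal protease legumain, was low, at 18.7 and 41.8 CPM against 306 and 642 CPM in macrophages (log2 difference -4.03, adjusted p = 3e-05). The uptake receptors Axl, with 4 and 4 UMIs, and Mertk, with none, were near or below detection.

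Of 14 genes of the general dendritic lineage, none was above or below all 4 classes in all barcodes, and 1, Zeb2, was below all 4 in the core. Flt3, the cytokine receptor that sustains dendritic cells, was at 90.8 and 115 CPM and exceeded macrophages (log2 difference 3.17, adjusted p = 1.4e-06), with no call against the 3 dendritic classes. Zeb2, a factor that holds back the cDC1 fate, was at 84.1 and 67.1 CPM, below Cd209a/Clec10a dendritic cells, plasmacytoid dendritic cells and macrophages, and at 3.17 and 27.8 CPM in the core, where its largest adjusted p over the 4 classes was 0.0057. Irf4, the factor of the other conventional lineage, had 6 and 14 UMIs, at 8.01 and 11.5 CPM, and was lower than in all 3 dendritic classes.

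Between the libraries, most cDC1 genes stood at like levels. A gene was compared when it had at least 100 UMIs over both libraries, as the log2 ratio of CPM plus 1, the library labelled NOD.Cxcl16-/- over WT NOD. Of 2715 such genes, 35 were at least 2-fold higher (1.29%) and 20 at least 2-fold lower (0.737%), and the median log2 ratio was 0.01. In the core, all 55 kept their sign, but only 26 of the 35 and 10 of the 20 were past 2-fold. Without the cycling barcodes the counts were 21 and 19, of 2061 genes that then reached 100 UMIs.

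The chemokine receptor Ccr7, which guides dendritic cells to lymph nodes, was among the highest ratios. It had 13 UMIs in 8 of 41 barcodes in the WT NOD library, at 17.4 CPM (9.24 to 29.7), and 132 UMIs in 28 of 71 barcodes in the other, at 108 CPM (90.4 to 128). The log2 ratio was 2.57 (counting interval 1.81 to 3.59), and 2.74 in the core. With each barcode thinned to 5000 UMIs, it was read in 3 of 38 barcodes, or 7.89% (exact interval 1.66 to 21.4%), and in 16 of 64 (15.0 to 37.4%), and these intervals overlap. The thinned share was 27.3% and 31.9% in Cd209a/Clec10a dendritic cells and 83.6% and 70.8% in migratory dendritic cells. It was 58.3% and 58.0% in B cells and 6.25% in macrophages of both libraries. Without thinning the cDC1 shares were 19.5% and 39.4%.

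Ccr7 was also higher in the second library in Cd209a/Clec10a dendritic cells (log2 ratio 1.56), while in migratory dendritic cells, at 1156 and 1091 CPM, the log2 ratio was -0.08. The rule removes cDC1 with more than 1 Fscn1 or Ccl22 UMI, so Ccr7 here is read only in cells below that limit.

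Cd80, a ligand of the T-cell receptors CD28 and CTLA4, stood at 34.7 CPM from 14 barcodes in WT NOD and at 90.1 CPM from 45 barcodes in the other. Its log2 ratio was 1.35 (0.75 to 2.05), and 1.46 in the core. After thinning it was read in 18.4% (7.74 to 34.3%) and 32.8% (21.6 to 45.7%) of barcodes, and these intervals overlap. Without thinning the shares were 34.1% and 63.4%. In Cd209a/Clec10a dendritic cells the thinned shares were 18.2% and 53.2%, and in macrophages 15.6% and 17.7%. The other costimulatory genes differed less. Of 7 costimulation and checkpoint genes compared, Cd80 alone was past 2-fold, with Cd86 at 411 and 459 CPM, Cd40 at 92.1 and 113 CPM and Cd274, which encodes PD-L1, at 190 and 229 CPM.

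Serpinb9, an inhibitor of granzyme B, had 32 and 136 UMIs, at 42.7 and 111 CPM, with a log2 ratio of 1.36 (0.82 to 1.99) and of 1.03 in the core. Wipf1, a regulator of the actin skeleton, was at 66.8 and 172 CPM, with 1.35 (0.91 to 1.84) and 1.26 in the core. Cd207 was at 29.4 and 74.5 CPM and came from only 9 and 15 barcodes, with a log2 ratio of 1.31 (0.66 to 2.09). Cd207 was also read in macrophages and B cells of the second library, at 26.2 and 4.61 CPM, and in none of the first.

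Other high ratios rested on few barcodes or on barcodes outside the core. Atxn1 had the highest, at 12.0 and 98.3 CPM, but 2 barcodes held all but 22 of its 120 UMIs in the second library. Ifitm1 had 143 UMIs there, 53 of them in 1 barcode, and its log2 ratio was 2.32 in all barcodes and 1.58 in the core. For Ltb, the lymphotoxin beta chain, the ratio was 1.53 and 0.60 in the core, and Il1r2, the decoy receptor of interleukin 1, was at 66.8 and 191 CPM, with 0.81 in the core. Rpl9-ps6, named as a pseudogene of Rpl9 but listed as protein-coding in GENCODE M21, was at 40.1 and 101 CPM. It was also higher in the 7 other classes, with log2 ratios from 0.53 to 1.65. Whether it shares reads with Rpl9 was not tested.

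Several of the lowest ratios belonged to histone and other genes known from dividing cells, although no gene of the S-phase and G2M lists was past 2-fold lower. The replication-dependent histone genes Hist1h2ap, Hist1h2ae and Hist1h1b had log2 ratios of -4.96, -1.61 and -1.25. Hist1h2ap had 99 UMIs in 7 barcodes of the WT NOD library and 4 UMIs in 4 barcodes of the other, at 132 and 3.28 CPM. Histone copies resemble each other, so how reads were split among them is uncertain. Pclaf, a partner of the replication clamp, was at 303 and 83.5 CPM and read in 11 and 16 barcodes, and Stmn1, a microtubule regulator of dividing cells, was at 218 and 55.7 CPM. Their core log2 ratios, -1.77 and -1.90, were near those of all barcodes, -1.85 and -1.95.

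Of 8 chemokine and receptor genes compared, Ccr7 was past 2-fold higher and Ccl4 and Ccl5 past 2-fold lower. The levels of these chemokines differed between all barcodes and the core. Cxcl2, a neutrophil attractant, was at 447 and 137 CPM, but 178 of its 335 UMIs in WT NOD lay in 1 barcode, and its log2 ratio of -1.70 was -0.66 in the core. Ccl4, an inflammatory chemokine, was at 258 and 103 CPM, with -1.31 and -0.66. Ccl5, a chemokine of T cells and activated dendritic cells, had 150 and 121 UMIs at 200.3 and 99.1 CPM, with a log2 ratio of -1.01 in all barcodes and of -2.55 in the core. The interferon-induced gene Ifi27l2a was at 287 and 82.7 CPM, with -1.78 and -0.93. It was also lower in the second library in the 7 other classes, with log2 ratios from -0.21 to -5.45.

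2 other named genes completed the lower side. Ccdc162 was at 90.8 and 31.9 CPM, with a log2 ratio of -1.48 and of -0.84 in the core. The gene model Gm10260 was at 127 and 42.6 CPM and was also lower in the other 7 classes, with log2 ratios from -0.92 to -2.60.

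Cxcl16, the transmembrane chemokine for CXCR6+ T cells and the gene named in the genotype, had 228 and 335 UMIs in cDC1, at 304 CPM (266 to 347) and 274 CPM (246 to 305). Its log2 ratio was -0.15 (-0.40 to 0.10), so a difference was not detectable at this depth. Over barcodes it ran from 0 over a median of 5 to 17 UMIs and from 0 over 4 to 24, and the libraries overlapped throughout. The 3' reads do not show whether a deleted part of the gene is missing. In the class comparison, cDC1 did not differ past the test from the 4 classes, and macrophages held 722 and 521 CPM.

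The receptors that place dendritic cells in tissue were read too. Ccr2, which brings precursors from blood, was at 171 and 147 CPM, and was higher than in migratory dendritic cells (log2 difference 3.19, adjusted p = 3.1e-06). Cxcr3, a receptor of inflamed tissue, was low, at 22.7 and 24.6 CPM. Ccr9 was at 132 and 81.9 CPM in all barcodes and at 17.5 and 12.4 CPM in the core.

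**Figure D4:**
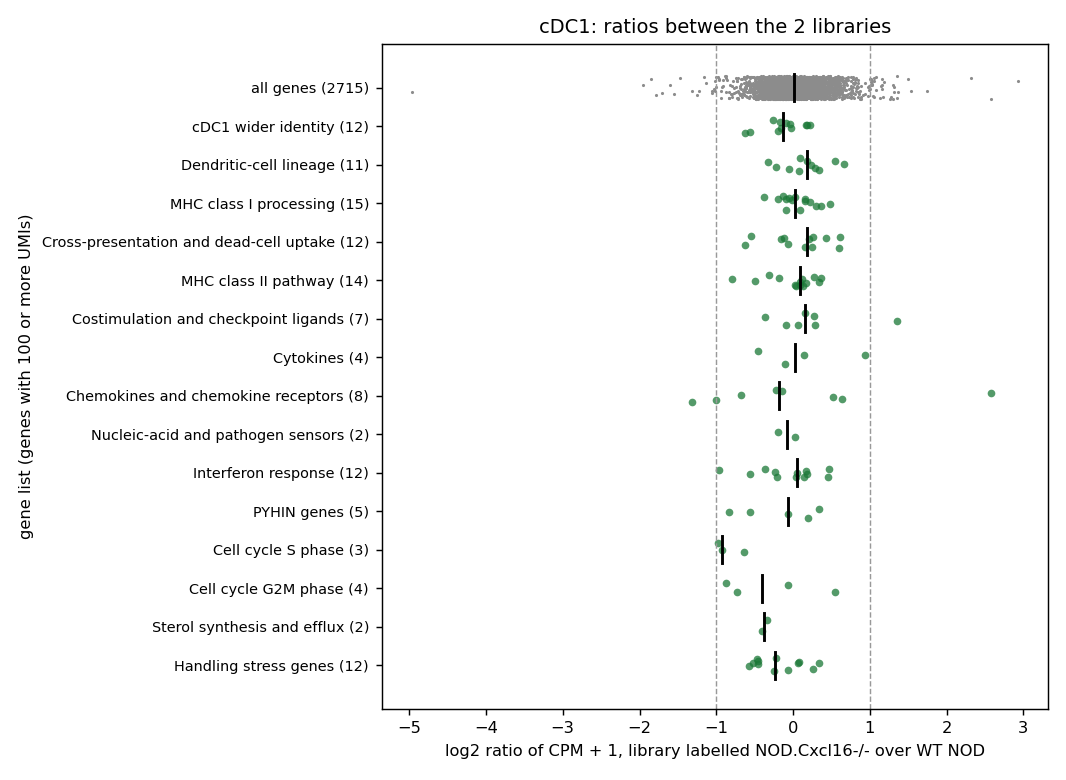
Each point is a gene with at least 100 UMIs over both libraries, placed by its log2 ratio of CPM + 1 in cDC1, the library labelled NOD.Cxcl16-/- over WT NOD, in rows of gene lists with the number of genes compared. Black bars are medians and dashed lines mark 2-fold. The MHC and interferon lists lie within the lines, the S-phase genes lie to the left of 0, and Ccr7 stands out to the right among chemokine receptors.

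The antigen-presentation programme was level between the libraries. None of the 14 MHC class II genes and none of the 15 MHC class I genes compared was past 2-fold in either direction, with median log2 ratios of 0.10 and 0.03, beside 0.01 for all genes. H2-Aa ranged over barcodes from 2 over a median of 160 to 297 UMIs in WT NOD and from 0 over 158 to 456 in the other, so the libraries overlapped throughout. The largest class II ratio was that of Ctsl, a cathepsin, at 135 and 77.0 CPM (-0.80), and it was -0.19 in the core.

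Among cytokines, Il12b, which encodes the shared p40 subunit of interleukin 12 and 23, had 29 UMIs in 4 barcodes and 92 UMIs in 11 barcodes, at 38.7 and 75.3 CPM. In the second library 1 barcode held 45 of the 92. Its log2 ratio was 0.94 (0.34 to 1.62), under the 2-fold line, and 2.03 in the core, so its side of that line depends on the barcodes taken. Il12a, the partner subunit, had 5 and 3 UMIs. Il1b was at 726 and 678 CPM, read in 27 and 41 barcodes. In the class comparison, Il12b was higher than in Cd209a/Clec10a dendritic cells at 3.96 and 13.5 CPM (adjusted p = 0.028) and lower than in migratory dendritic cells (-2.96, adjusted p = 1.3e-04) and macrophages (-2.77, adjusted p = 1.3e-04).

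The chemokines that draw CXCR3+ T cells were abundant. Cxcl9 had 1070 and 2709 UMIs, at 1429 and 2218 CPM, with a log2 ratio of 0.63, and ran over barcodes from 0 over a median of 7 to 222 UMIs in WT NOD and from 0 over 14 to 154 in the other. Cxcl10 was at 453 and 647 CPM with a log2 ratio of 0.51, and of 1.15 in the core. Neither differed past the test from Cd209a/Clec10a or migratory dendritic cells or macrophages in the class comparison.

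Of 12 interferon-response genes compared, none was past 2-fold, and the median log2 ratio was 0.05. Irf1, an interferon-induced transcription factor, was at 401 and 411 CPM. Irf7, the amplifier of type I interferon, came nearest, at 139 and 70.4 CPM (-0.97, and -0.94 in the core). Irf7 was also lower in the second library in Cd209a/Clec10a dendritic cells, at 178 and 65.7 CPM, migratory dendritic cells, at 321 and 39.97 CPM, and macrophages. Of the PYHIN family, Mndal was at 207 and 115 CPM (-0.84, and -1.11 in the core) and Ifi205 at -0.56.

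Part of the cDC1 barcodes held transcripts of dividing cells. After thinning to 5000 UMIs, 12 of 38 barcodes (31.6%, exact interval 17.5 to 48.7%) in the WT NOD library and 9 of 64 (14.1%, 6.64 to 25.02%) in the library labelled NOD.Cxcl16-/- held at least 3 UMIs of a list of 16 G2M genes. The intervals overlap. The core gave 37.9% and 17.8%. In the same reading, Cd209a/Clec10a dendritic cells gave 9.09% and 4.26%, migratory dendritic cells 5.45% and 11.2%, macrophages 3.13% and 6.25%, and B cells 4.08% and 7.47%. Plasmacytoid dendritic cells gave 14.3% of 7 and 0% of 12 barcodes. In the second library the interval of cDC1 overlaps those of all these classes, among them migratory dendritic cells at 5.52 to 19.7%. In the WT NOD library it overlaps those of Cd209a/Clec10a dendritic cells (1.12 to 29.2%) and plasmacytoid dendritic cells (0.361 to 57.9%). There it lies above those of migratory dendritic cells (1.14 to 15.1%), macrophages (0.0791 to 16.2%) and B cells (2.63 to 6.01%). CD8 T cells were not thinned, but their G2M list summed to 1706 and 1322 CPM, against 769 and 671 CPM in cDC1.

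Thinning left out 3 and 7 barcodes, and without it the shares were 34.1% and 38.0%, which are not ordered like the thinned ones. At least 3 UMIs of 16 S-phase genes were held by 13 barcodes in each library. Both lists were past the limit in 9 barcodes of the WT NOD library and in 3 of the other, and the S-phase list alone in 4 and 10. Free RNA adds to such counts and its part was not tested.

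Single genes of the 2 lists moved differently. Pcna, the replication clamp, was at 174 and 90.9 CPM, Dut, a nucleotide hydrolase, at 171 and 86.0 CPM and Mcm6, of the replicative helicase, at 68.1 and 43.4 CPM, a median log2 ratio of -0.93 over the 3 S-phase genes compared. Among the 4 G2M genes compared, Top2a was at 159 and 94.98 CPM and Birc5 at 144 and 78.6 CPM, while Mki67 was level at 78.8 and 75.3 CPM and Ube2c was at 97.5 and 143 CPM. In the class comparison, Ube2c was higher than in Cd209a/Clec10a and migratory dendritic cells and macrophages, with log2 differences of 4.33, 4.61 and 4.47 (adjusted p of 0.018, 0.0021 and 0.0022).

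**Figure D5:**
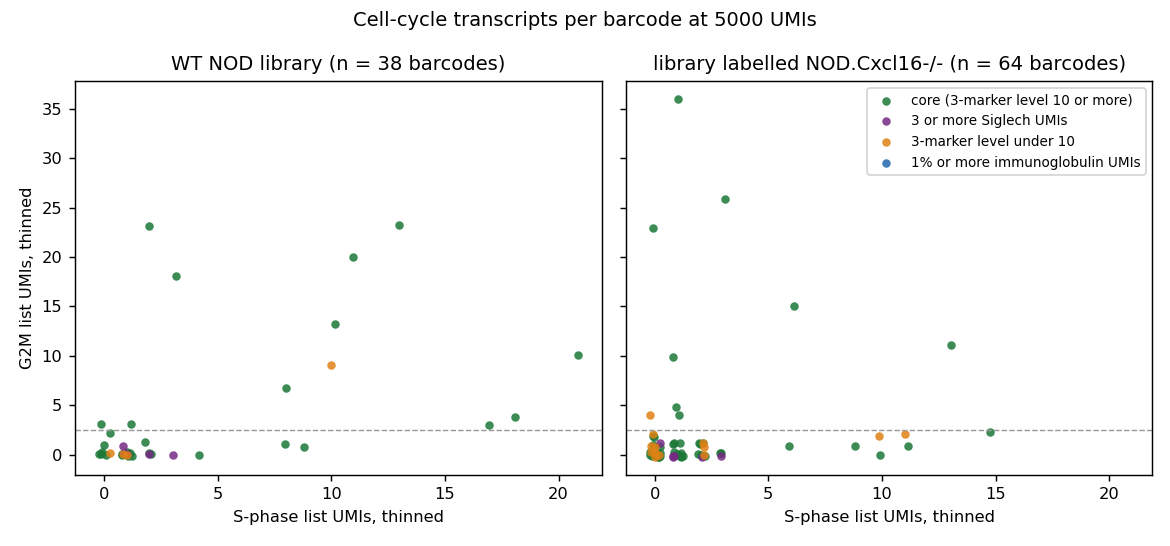
Each point is a barcode thinned to 5000 UMIs, by its UMIs of 16 S-phase genes (x axis) and of 16 G2M genes (y axis), in WT NOD (left, n = 38) and the library labelled NOD.Cxcl16-/- (right, n = 64), slightly moved so that points do not cover each other. The dashed line lies below the limit of 3 G2M UMIs. Most barcodes past it are in the core, 11 of 12 and 8 of 9.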

How the data were processed

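The members and gene lists were chosen with earlier results of these data known. The deposited values are raw UMI counts per gene and barcode, made by the authors with Cell Ranger 7.0.1 and the build mm10, per the submitters' processing notes, and no normalization was applied to them. Whether intronic reads were counted is not given in the sources used here. GENCODE M21 holds 32158 of the 32285 deposited IDs.

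Counts were summed per class and library and given as CPM. Poisson and Clopper-Pearson intervals are at 95% and cover counting error only. Where groups are replicated (classes over libraries), edgeR 4.0.16's quasi-likelihood test with TMM, filterByExpr, the library as block and Benjamini-Hochberg adjustment was used (R 4.3.3, 4 residual degrees of freedom). The other main tools were Python 3.11.15 and scipy 1.17.1. DESeq2 1.42.0 was an alternative.

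Named were the 20 genes highest and up to 10 lowest against all 4 classes by smallest difference, and the 10 highest and 10 lowest ratios between libraries past 2-fold, with immunoglobulin, T-cell receptor, mitochondrial, haemoglobin and islet genes left out. Members of the gene lists were named as well. Of the listed genes, 2 were not found among the symbols. Scripts were tested on simulated data. The block by library is given by the design, since each library holds every class.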

Additional observations from a re-analysis of the deposited data

How the results depend on the processing

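The 2-fold counts between libraries, 35 higher and 20 lower, were 92 and 56 at a minimum of 50 UMIs, 8 and 8 at 200, 1 and 2 after thinning, 19 and 13 with 4 or more Xcr1 and Clec9a UMIs, 61 higher with the mean of each cell's CPM, 21 higher without cycling cells (2061 genes) and 9 lower in the core. The class counts, 46 higher and 7 lower, were 87 and 52 in the core, 10 and 3 by DESeq2, where 7 of the 53 genes had no adjusted p, and 34 and 4 without the library as replicate block. In each library alone, all 46 and 7 kept their direction, with no test. They had been called from these same 2 libraries, so this is no separate check. The share of kept barcodes was 0.547 and 1.01% with 1 Xcr1 or Clec9a UMI, 0.212 and 0.392% with 4, 1.55 and 2.90% with no limits on other cell types, and 0.245 and 0.460% in the core, where the intervals overlap. The cycling share of the library labelled NOD.Cxcl16-/- was 38.0% without thinning. The cause of these moves was not tested. The core and the split without Siglech barcodes were chosen after seeing the data. With 41 and 71 barcodes, genes of few UMIs could not be compared, and genes at 0 UMIs may lie below detection.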
